A study of Mus musculus with 6 samples.

Results

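Open chromatin lying over coding exons or untranslated regions (UTRs), away from gene starts, was examined in GL261 cells, a mouse glioma line, here stably expressing pEGFP-N1, a plasmid for a green fluorescent protein. ATACseq, in which a transposase cuts accessible DNA, was carried out on formaldehyde-fixed cells kept at 21% O2 (normoxia), or at 1% or <0.1% O2 for 16 h, with 2 libraries per condition and 6 in all. All libraries came from the same line, and the labels do not say whether replicates came from separate cultures, so their spread may be technical. The labels of the groups differ in the oxygen level, and give the time only for the hypoxic ones. The peaks were chosen by where the peak caller found them: a consensus peak was kept if it held a stretch of over 200 bp shared by both replicates in each of the 3 conditions, lay more than 2000 bp from every gene start in the GENCODE M21 basic annotation, and overlapped a coding exon or UTR by at least 1 bp. This gave 1189 exon peaks on 1101 genes, out of 41308 consensus peaks, of which 28197 were open in all 3 conditions. The other peaks open in all conditions were 12909 at promoters, 6778 in introns, 7105 between genes and 216 over exons of noncoding transcripts only. Of 1831 exon peaks present in any condition, the rest lacked a shared stretch in at least 1 condition and are not described. Presence in every condition was thus fixed by the choice, and the values from the same libraries are given below as a description, with no test.

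As background, most exon sequence is wrapped in nucleosomes, and transcription factors that bind inside exons meet sequence that also has to encode protein or regulate the mRNA. Distal open sites in tumour cells often carry the motif of AP-1, the dimer of Fos and Jun family proteins that responds to stress and growth signals, whereas CTCF, a zinc finger protein, holds chromatin loops and binds both inside and outside genes. At low oxygen the hypoxia-inducible factors (HIFs) are stabilised and bind a short core motif, mostly at promoters and enhancers of genes for glycolysis, angiogenesis and pH control.

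The 30 bases around the AP-1 match nearest the summit are shown first for exon peaks of *Sap30bp*, *Rubcn*, *Ankrd35*, *Pdk1* and *Bhlhe40*, which are described below for their change with oxygen or their place on a HIF target list. Sequences are the plus strand of mm10 (GRCm38.p6), with the letters TGANTCA in capitals.
*Sap30bp*, chr11:115965135-115965164: agtggtagagaTGAATCAcctcctgctctg
*Rubcn*, chr16:32822288-32822317: tctctgaggtcTGACTCAgtgataagtgaa
*Ankrd35*, chr3:96679564-96679593: ctccctccctgTGAGTCAtctgcattcatg
*Pdk1*, chr2:71903953-71903982: tccaaaagcttTGACTCAgctagggataaa
*Bhlhe40*, chr6:108665669-108665698: ggcttgatctgTGAGTCActctccagtttg

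Matches to the CTCF motif, in capitals, are shown for the 4 exon peaks with such a match that rose most at 1% O2, a set chosen after its values were seen. The *Acvr1b* match lies on the minus strand and the other 3 on the plus strand. The normoxic summit lay in an intron in *Acvr1b* and *Pick1*, outside any gene in *Dusp26* and in a 3′ UTR in *Tor4a*.
*Acvr1b*, chr15:101198385-101198414: cacagcatcGCCCTCTAGTGGctagtgagc
*Dusp26*, chr8:31097165-31097194: ccaacttatCCACAAGGGGGCagcagagga
*Pick1*, chr15:79243364-79243393: tgcctttgaCCAGGAGGTGGCgctgctgtc
*Tor4a*, chr2:25193531-25193560: tgggtgcagCCACAAGATGGCagcacagac

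AP-1 matches that lie wholly inside coding sequence are shown for the 4 such peaks with the highest normoxic rank, also chosen after their values were seen. *Ghr* encodes the growth hormone receptor and *Elfn2* a leucine-rich repeat membrane protein.
*1810062G17Rik*, chr3:36481859-36481888: ctggccacaaaTGACTCAtcgtccaggaat
*Ghr*, chr15:3320037-3320066: tttttggcatcTGACTCAcaaaagtaggca
*Tceanc2*, chr4:107147552-107147581: ttttttctaaaTGACTCAgtttttggatcg
*Elfn2*, chr15:78673684-78673713: aactccctcggTGACTCAcactgcaggcga

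The deposited lists give a fold enrichment for each peak, and a higher fold means more fragments at the summit than in the local background. The largest fold within each consensus peak was ranked in each library, as a percentile among the 28432 consensus peaks found in all 6, and these include all 1189 exon peaks. Ranks are relative, so a peak gains rank only if its fold gains compared with others in the same library. The fold can move with the local background as well as with the pileup at the summit. To be called higher, a peak needed both of its hypoxic ranks above both of its normoxic ranks, and a mean gain of at least 10 points; lower was defined in the same way. No p-value is given, since the smallest that an exact permutation test allows in this design is 0.33. The comparisons of 1% and <0.1% O2 share the normoxic libraries. Over all ranked peaks 18.5% were called lower and 16.6% higher at 1% O2, and 19.9% lower and 19.3% higher at <0.1% O2. Normoxic replicate ranks of an exon peak differed by a median of 7.18 points, and by over 10 points in 36.9% of them. Genome coverage ran from 2.16 to 3.35 fragments, lowest in the 2 normoxic libraries, and the median summit pileup of the exon peaks was 51 and 64 fragments in normoxia, 96 and 89 at 1% O2 and 94 and 78 at <0.1% O2. In bulk cells, a site open in fewer cells and a site less open in every cell cannot be told apart. As a check of the label, 7 of 9 glial and glioma marker genes had a promoter peak open in all conditions, against 0 of 5 immune, 0 of 4 endothelial, 2 of 4 neuronal and 1 of 3 epithelial markers; *Sox9* and *Fabp7* were the glial markers without one.

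Most exon peaks touched an exon rather than being centred on one. Their median length was 743 bp, and a median of 24.4% of the peak lay inside exons. At least 50% lay inside exons in 338 peaks and the whole peak in 204. The normoxic summit, the base with the highest pileup, fell in an intron in 675 peaks (56.8%, exact 95% interval 53.9 to 59.6%), in a coding exon in 228 (19.2%, 17.0 to 21.5%), in a 3′ UTR in 227 (19.1%, 16.9 to 21.4%), outside any gene in 53, and in a 5′ UTR or a noncoding exon in 3 each. In all, 38.8% (36.0 to 41.6%) of summits lay inside an exon. The intervals cover counting error only.

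**Figure D1:**
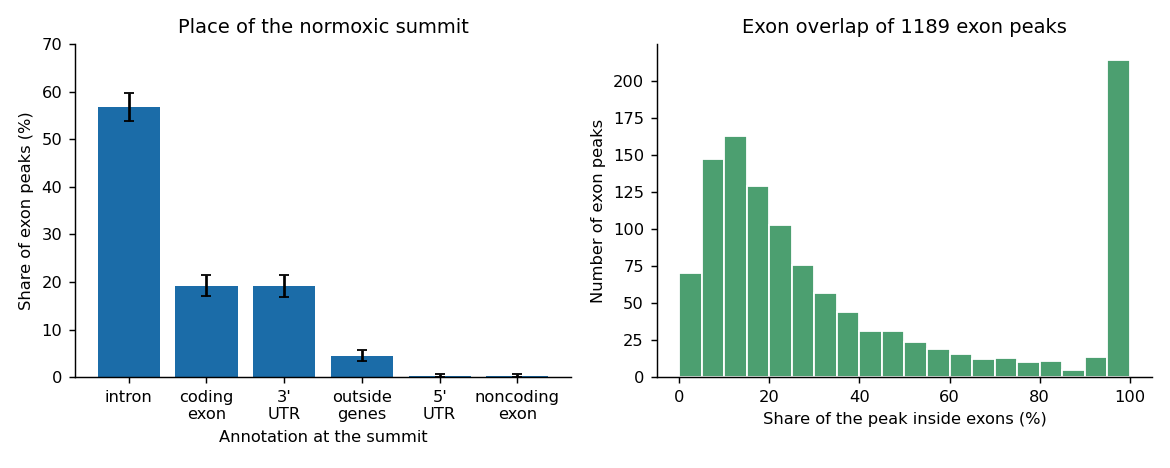
Left, share of the 1189 exon peaks (bars, with exact binomial 95% intervals) whose normoxic summit lay in each annotation. Right, number of exon peaks by the share of their length inside coding exons or UTRs. Intron summits make up 56.8%, and 204 peaks lie wholly inside exons.

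The exon peaks split by where in the host transcript they lay. Internal exons after the second held 706 peaks (59.4%), last exons 406 (34.1%), second exons 72, single-exon transcripts 4 and a first exon 1. Last exons, which carry most 3′ UTR sequence, had a median length of 1828 bp, and 72.7% of their peaks had the summit inside an exon. Other internal exons had a median length of 136 bp and only 20.4% of their summits inside an exon. Peaks lay a median of 10831 bp from the nearest basic start site. However, 347 of 1189 (29.2%) lay within 2000 bp of the start of a transcript outside the basic set, and 158 held such a start. The 347 had median changes of 0.71 points at 1% O2 and 2.86 at <0.1% O2, near the 0.46 and 2.95 of the 842 peaks with no start of any transcript within 2000 bp. With the trend of rank on GC content subtracted in each library, these were -0.20 and 0.97, against -0.42 and 0.75. Just above the 2000 bp limit, 5 peaks lay within 100 bp of it, with median changes of -4.67 and -8.42, and the 11 exon-overlapping peaks just below it had -1.10 and 1.70.

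In GC and CpG content the exon peaks lay nearer to intron peaks than to promoters. The 200 bp centred on the summit had a median GC content of 52.5%, between 49.5% in intron peaks and 64.0% in promoter peaks. The observed-to-expected CpG ratio reached 0.6, a level typical of CpG islands, in 166 exon peaks (14.0%), against 3.90% of intron peaks and 69.98% of promoter peaks. Repeats masked in the assembly filled at least 50% of 5 exon peaks (0.421%), against 0.364% of promoter, 1.89% of intron and 4.63% of intergenic peaks.

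Motif content also lay nearer to that of distal peaks for AP-1, Sp/KLF and ETS sites. A match is a description of the sequence and shows no binding. Matches on both strands were counted in the 200 bp at the normoxic summit, and motif letters may overlap. AP-1 (TGANTCA) was present in 281 exon peaks (23.6%, 21.2 to 26.2%), against 30.1% (29.0 to 31.2%) of intron, 26.6% (25.5 to 27.6%) of intergenic and 6.51% of promoter peaks. The CTCF motif was present in 80 (6.73%, 5.37 to 8.30%), close to the 6.31% of intergenic peaks and above the 3.42% (3.00 to 3.88%) of intron peaks. Sp/KLF sites (GGGCGG), typical of promoters, were in 13.5% (11.6 to 15.6%) of exon peaks, 8.44% of intron and 53.6% of promoter peaks, and ETS sites (CCGGAAG) in 2.44%, 1.55% and 12.1%. The HIF core (ACGTG) was present in 158 exon peaks (13.3%, 11.4 to 15.4%), against 10.4% of intron and 18.5% of promoter peaks. E-boxes (CAGCTG) were in 19.01%, NFY sites (CCAAT) in 20.7%, RUNX (TGTGGT) in 17.7%, TEAD (GGAATG) in 12.4%, SOX (AACAAT) in 7.49% and CRE (TGACGTCA) in 0.336%. The spaced NFI motif was found in 0 of 1189, which allows a share of up to 0.310%.

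**Figure D2:**
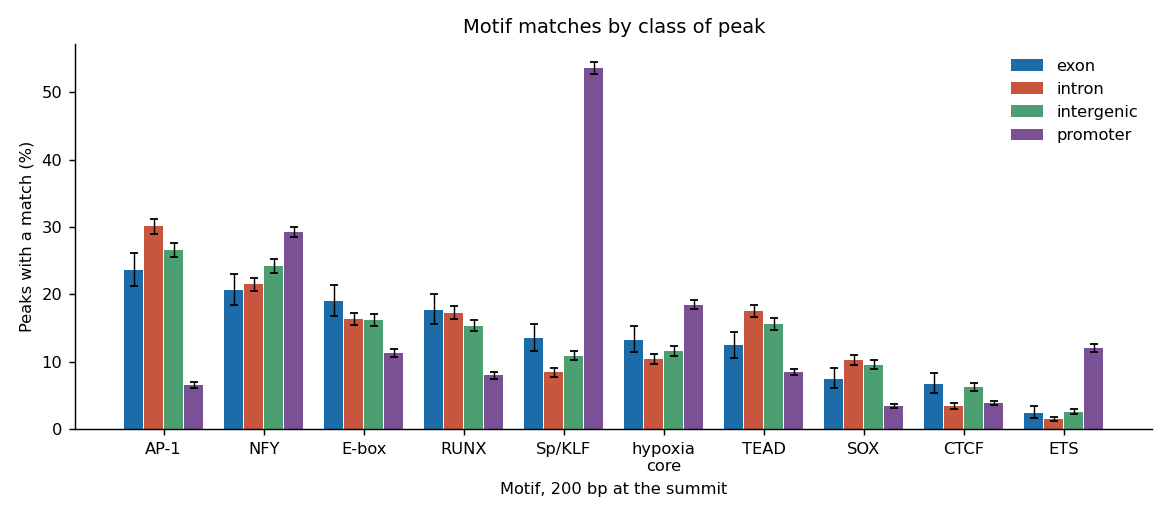
Share of peaks with at least 1 match in the 200 bp at the normoxic summit (y axis, percent) for each motif and class of peak, with exact binomial 95% intervals. Exon peaks (23.6%) hold AP-1 far more often than promoter peaks (6.51%) and Sp/KLF (13.5%) far less often (53.6%).

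The match nearest the summit lay wholly in coding sequence in 29 of the 281 peaks, in a UTR in 48 and elsewhere in 204. Of the 29 coding matches, 0 began on the first base of a codon, 14 began 1 base later and 15 began 2 bases later. TGA is a stop codon, and the motif reads the same on both strands, so a match that begins on a codon would end the reading frame. The 18 CTCF matches in coding sequence began on the first base in 6, 1 base later in 4 and 2 bases later in 8. In the peaks shown, the AP-1 letters begin 1 base after a codon start in *1810062G17Rik* and 2 bases after it in *Ghr*, *Tceanc2* and *Elfn2*. None of these 4 was called at <0.1% O2: *1810062G17Rik* had ranks of 97.0 and 98.1 at 21% O2 and 91.2 and 94.2 at <0.1% O2, *Ghr* 94.9 and 94.2 against 91.0 and 96.0, *Tceanc2* 97.1 and 90.6 against 96.0 and 93.0, and *Elfn2* 90.4 and 93.6 against 99.5 and 97.1. These 4 were chosen for a high normoxic rank, which left too little room for a higher call at either hypoxic level. The lack of such a call therefore does not show whether peaks with AP-1 in coding sequence rise. A lower call was possible, and *Tceanc2*, at 78.0 and 83.0, was called lower at 1% O2. Over all exon peaks with a match, the median distance to the summit was 30.5 bp for AP-1 and 16 bp for CTCF.

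As a group the exon peaks stood higher in the ranking at <0.1% O2 than at 21% O2. The 21% O2 libraries had exon peak medians of 42.7 and 44.0, those at 1% O2 45.0 and 46.1, and those at <0.1% O2 50.6 and 49.8, with no overlap between conditions. The median change of a peak was 0.49 points at 1% O2 and 2.94 at <0.1% O2, with a standard deviation of the library medians of 0.84 and 0.79. At 1% O2 203 exon peaks (17.1%) were called lower and 277 (23.3%) higher, beside the 18.5% and 16.6% of all ranked peaks. At <0.1% O2 129 (10.8%) were called lower and 351 (29.5%) higher, beside 19.9% and 19.3%. Intron peaks showed almost the same picture at <0.1% O2, with a median change of 3.09 and 28.6% called higher, while promoter peaks had a median change of -2.56 and 26.5% called lower. With the trend of rank on GC content subtracted in each library, the exon peaks' median change was -0.32 at 1% O2 and 0.80 at <0.1% O2, and 15.3% were lower and 26.0% higher at <0.1% O2, beside 19.7% and 20.4% of all ranked peaks. The medians of promoter and intron peaks at <0.1% O2 were then 0.74 and -0.35.

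**Figure D3:**
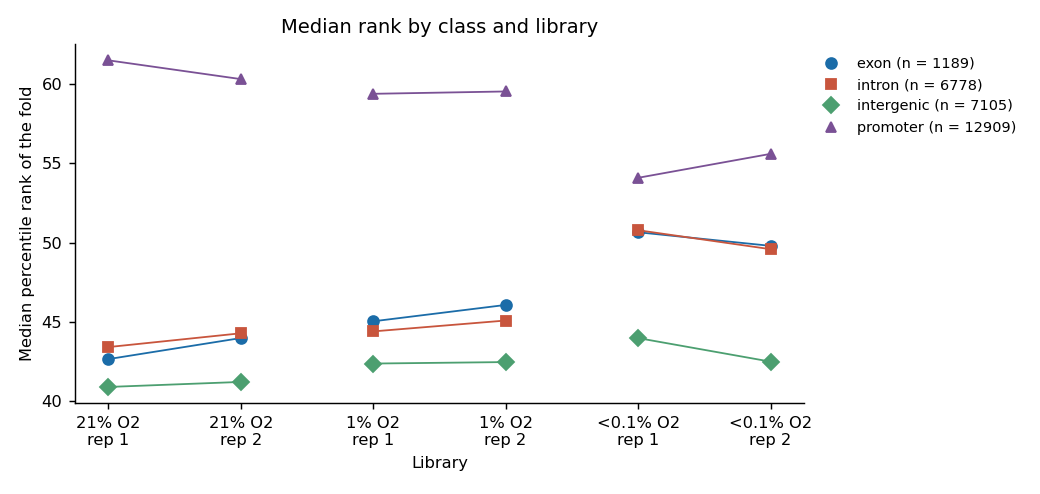
Median percentile rank of the fold (y axis) in each of the 6 libraries (x axis; lines join the replicates of a condition) for exon, intron, intergenic and promoter peaks. Exon peaks go from 42.7 and 44.0 at 21% O2 to 50.6 and 49.8 at <0.1% O2, and promoter peaks from 61.5 and 60.3 to 54.1 and 55.6.

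Exon peaks with and without an AP-1 match differed. The normoxic medians of the 281 with a match were 46.2 and 50.6, those at 1% O2 58.5 and 58.6, and those at <0.1% O2 66.6 and 65.9, higher at each step. Their median change was 4.89 points at 1% O2, with 91 (32.4%) called higher and 37 (13.2%) lower, and 9.22 at <0.1% O2, with 127 (45.2%) higher and 17 (6.05%) lower. The 908 without a match had median ranks of 41.8 and 41.9 at 21% O2 and 45.2 and 45.0 at <0.1% O2, a median change of 1.32 (2.35 without 21% O2 replicate 2), and 224 (24.7%) called higher. With the GC trend subtracted the median changes at <0.1% O2 were 5.81 with the motif and -0.30 without it, and with the summit pileup ranked in place of the fold they were 10.3 and 0.70. The same motif went with a median change of 8.13 in intron peaks, 5.57 in intergenic and 3.41 in promoter peaks. By the place of the match, 12 of the 29 peaks with AP-1 in coding sequence, 22 of the 48 with it in a UTR and 93 of the other 204 were called higher at <0.1% O2.

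Exon peaks with a CTCF match stood highest at 1% O2. The medians of these 80 peaks were 37.6 and 34.6 in normoxia, 46.1 and 49.1 at 1% O2, and 37.5 and 40.5 at <0.1% O2. At 1% O2 37 of the 80 (46.2%) were called higher and 3 lower, with a median change of 9.74. At <0.1% O2 25 (31.2%) were higher and 11 (13.8%) lower, with a median change of 4.33 (2.26 without <0.1% O2 replicate 1). Set directly against the 1% O2 libraries, the <0.1% O2 ranks differed by a median of -4.62, and 24 of 80 were called lower and 3 (3.75%) higher, where 15.2% and 15.8% of all ranked peaks were. All exon peaks had 11.4% lower and 23.1% higher in that comparison, with a median of 2.67, and those with AP-1 had 7.47% and 27.4%, with 5.57. With the pileup ranked these medians were -2.89 for CTCF and 1.33 for all exon peaks, and with the GC trend subtracted that for AP-1 was 2.86. Ranked by summit pileup, the median change of the CTCF group was 4.48 at 1% O2 and -0.17 at <0.1% O2, and 16 of the 80 were called higher at 1% O2 and 10 at <0.1% O2, against 24.0% and 29.0% of all exon peaks and 16.4% and 20.7% of all peaks ranked in this way. CTCF matches in other classes went with median changes at 1% O2 of 6.88 in intron, 6.07 in intergenic and 2.36 in promoter peaks. With the pileup ranked these were 2.26, 3.43 and 1.67.

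The 4 CTCF peaks shown above had these ranks. *Acvr1b*, an activin receptor, stood at 19.7 and 16.1 in normoxia, 69.8 and 67.0 at 1% O2, and 62.7 and 52.8 at <0.1% O2. *Dusp26*, a phosphatase, stood at 11.5 and 19.9, then 62.8 and 50.6, then 42.1 and 36.2. *Pick1*, a scaffold of glutamate receptors whose peak also overlaps *Gm49486*, stood at 47.3 and 58.8, then 87.5 and 93.8, then 96.4 and 55.5. In the first and second of these every <0.1% O2 library lay between the normoxic and the 1% O2 libraries, and in *Pick1* the <0.1% O2 replicates disagreed. *Tor4a*, of the torsin family, stood at 61.5 and 64.6, then 94.8 and 98.8, then 98.9 and 94.4, as high at <0.1% as at 1% O2.

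The place of the summit also went with different changes. Where the summit lay in a 3′ UTR, the library medians were 39.3 and 41.4 in normoxia, 42.7 and 43.3 at 1% O2, and 52.2 and 52.9 at <0.1% O2. At <0.1% O2 86 of 227 (37.9%) were called higher and 18 (7.93%) lower, with a median change of 6.33 (4.56 with the GC trend subtracted and 3.78 with the pileup ranked). Peaks with the summit in a coding exon, at 37.5 and 38.7, 41.5 and 41.9, and 40.3 and 36.5, had a median change of -0.68 at <0.1% O2, with 37 of 228 (16.2%) higher and 36 (15.8%) lower; the sign of that median turned with the pileup ranked (0.42), with the GC trend subtracted (0.06) and with either normoxic library left out (0.18 and 1.204). Peaks with an intron summit had a median change of 4.16, with 213 of 675 (31.6%) higher, and of 0.51 with the GC trend subtracted. The coding-summit group had the highest GC content of the 3, 56.5% against 52.5% and 51.5%, and the lowest share with AP-1, 14.0% against 22.0% and 27.6%. Among coding summits, the 32 with AP-1 had a median change of 5.12 at <0.1% O2 and the 196 without it -1.53. Among 3′ UTR summits the values were 10.1 for 50 peaks and 4.51 for 177. The 166 peaks with a CpG ratio of at least 0.6 had a median change of -2.11, with 27 lower and 20 higher. With the GC trend subtracted it was -0.40, with 24 lower and 33 higher, with the pileup ranked it was -1.202, and it was -0.62 without 21% O2 replicate 2 and -1.29 without <0.1% O2 replicate 1.

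**Figure D4:**
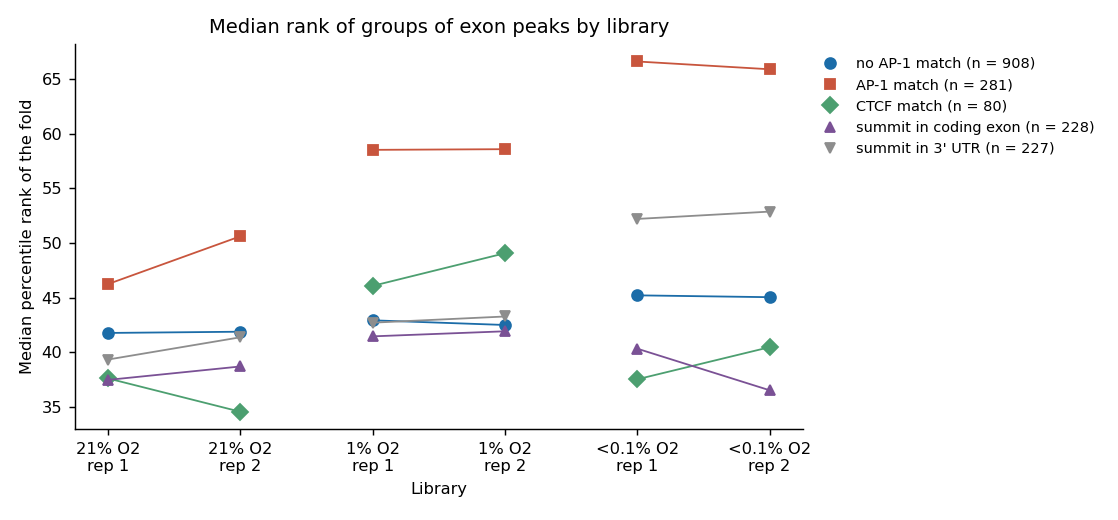
Median percentile rank of the fold (y axis) in each library (x axis; lines join replicates) for groups of exon peaks by motif and by place of the summit; groups may share peaks. Peaks with AP-1 go from 46.2 and 50.6 at 21% O2 to 66.6 and 65.9 at <0.1% O2, and those with CTCF stand highest at 1% O2 (46.1 and 49.1).

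TEAD sites, bound by the effectors of Hippo signalling, gave a further contrast between the hypoxic levels. The 148 exon peaks with a match had a median change of -2.35 at 1% O2, with 37 (25.0%) lower and 25 (16.9%) higher, and of 3.52 at <0.1% O2, with 49 (33.1%) higher. The latter was -0.08 with the GC trend subtracted, with 43 higher. Against 1% O2, 37.8% were called higher at <0.1% O2 and 5.41% lower. The 158 peaks with the HIF core had median changes of 0.78 and 2.67, with 25.9% higher at 1% O2 and 24.1% at <0.1% O2, against 22.9% and 30.4% of the 1031 without it. The 0.78 at 1% O2 was -0.056 with the GC trend subtracted and 3.07 with the pileup ranked. The share called higher at <0.1% O2 was not larger with the core than without it.

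By rank of the fold, the largest rises at <0.1% O2 were over the last exons of *Rubcn* and *Sap30bp*, both wholly inside the 3′ UTR. With the pileup ranked these rises were 40.6 and 56.6 points, and *Wdfy3* (47.7) and *Gdpd5* (41.8) stood above *Rubcn*. With the GC trend subtracted they were 65.6 and 70.2, below *Gdpd5* (70.4). *Rubcn*, an inhibitor of autophagosome maturation (exon 20 of 20, chr16:32821959-32822607, 649 bp), had ranks of 25.2 and 9.16 in normoxia, 79.0 and 82.0 at 1% O2 and 91.7 and 82.7 at <0.1% O2. Its summit pileup was 24 and 24 fragments at 21% O2 and 96, 80, 111 and 72 in the hypoxic libraries. *Sap30bp*, a binding partner of the Sin3 corepressor subunit SAP30 (exon 11 of 11, chr11:115964658-115965537), went from 33.6 and 23.1 to 96.7 and 90.2 at 1% O2 and 94.9 and 98.1 at <0.1% O2, and from 43 and 42 fragments to 287, 237, 227 and 196. Both carried AP-1 matches, 12.5 and 22.5 bp from the summit. In neither gene was the promoter peak called, with changes at <0.1% O2 of 6.40 and -2.21 points. Among the other rises named below, *Ankrd35* and *Fam13b* held an AP-1 match, and *Cttn*, *Wdfy3*, *Gdpd5* and *Kntc1* did not.

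The other large rises were in internal exons, with the summit in the neighbouring intron except in *Fam13b*. *Gdpd5*, a glycerophosphodiesterase (exon 7 of 18), had ranks of 17.7 and 15.4 in normoxia, 61.5 and 60.1 at 1% O2 and 91.3 and 75.8 at <0.1% O2. *Kntc1*, a kinetochore protein of the spindle checkpoint (exon 52 of 64), had 13.9 and 8.11, then 68.3 and 34.3, then 76.5 and 69.5, and was the 1 riser whose promoter was also called higher (by 18.8 points). *Fam13b* (exon 12 of 21, summit in the coding exon) had 21.9 and 18.8, then 58.5 and 77.6, then 91.4 and 69.3, while its promoter was called lower, by -33.1 points. In all 3 the hypoxic libraries lay above both normoxic ones, with wide spreads between some hypoxic replicates.

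At 1% O2 the largest rises, beside *Sap30bp* (65.1 points) and *Rubcn* (63.3), were in *Cttn*, *Wdfy3* and *Ankrd35*. *Cttn*, which encodes the actin-binding protein cortactin (exon 12 of 18), went from 33.8 and 37.6 to 97.1 and 94.6 at 1% O2 and stood at 96.4 and 88.2 at <0.1% O2, and its peak, like those of *Gdpd5* and *Rpgrip1*, held the start of a transcript outside the basic set. *Wdfy3*, a scaffold of selective autophagy (exon 62 of 67), went from 34.8 and 33.1 to 89.9 and 93.3, and stood at 86.6 and 90.3 at <0.1% O2; its promoter peak was called lower at both levels, by -21.0 and -19.5 points. *Ankrd35* (exon 3 of 13) went from 35.4 and 38.5 to 95.3 and 87.3, and stood at 80.8 and 76.0. In *Cttn* and *Wdfy3* the libraries of the 2 hypoxic levels overlapped, and in *Ankrd35* both <0.1% O2 libraries lay below both at 1% O2.

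The largest fall at <0.1% O2 was at the end of *Zfp706*, a zinc finger gene (exon 4 of 4, chr15:36995790-36997297), with ranks of 90.9 and 85.9 in normoxia, 55.1 and 66.8 at 1% O2 and 16.0 and 7.25 at <0.1% O2. This peak overlapped the 3′ UTR by 271 of 1508 bp, its summit lay outside the gene, and 100% of its bases were masked as repeat. A search of the assembly found 8987 further matches of at least 100 bp and 90% identity, the longest of 960 bp, and the authors kept only reads with a mapping quality over 30; the part of these copies in the fall was not tested. Its pileup was 45 and 47, 46 and 51, and 28 and 20 fragments.

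In *Ssmem1*, *Rpgrip1* and *Grm2*, whose peaks also fell at <0.1% O2, the same search found 0 further matches. *Ssmem1*, a small membrane protein gene (exon 2 of 3), had ranks of 70.7 and 85.8 in normoxia, 32.0 and 32.7 at 1% O2 and 32.7 and 27.4 at <0.1% O2. *Rpgrip1*, of the photoreceptor cilium (exon 4 of 25), had 68.7 and 76.7, then 76.8 and 48.4, then 30.3 and 28.3, but its pileup, 58 and 83 fragments at 21% and 86 and 88 at <0.1% O2, kept its rank, with a change of -1.43 points. *Grm2*, a metabotropic glutamate receptor, had its whole peak in the 3′ UTR (exon 6 of 6), with ranks of 68.0 and 35.0 that differed widely at 21% O2, and 9.76 and 13.9 at <0.1% O2.

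Several of the largest falls at 1% O2 were not seen at <0.1% O2 in both replicates. *Fcgr2b*, the inhibitory Fc receptor of immune cells (exon 5 of 10), had ranks of 84.8 and 78.0 in normoxia, 34.6 and 29.2 at 1% O2, and 80.8 and 38.3 at <0.1% O2. *Atg4a*, an autophagy protease (exon 7 of 13), had 75.3 and 97.6, then 57.5 and 19.4, then 90.8 and 38.3, and *D130043K22Rik* (exon 19 of 21) had 63.3 and 84.6, then 43.6 and 17.5, then 66.4 and 31.3. In each of the 3 the <0.1% O2 replicates stood far apart, and the *Fcgr2b* peak had 1 further match of 112 bp at 98.2% identity. *Stard5*, a sterol-binding protein whose peak lay wholly in the 3′ UTR (exon 6 of 6), had 49.4 and 72.2, then 23.4 and 20.4, then 51.6 and 57.3.

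**Figure D5:**
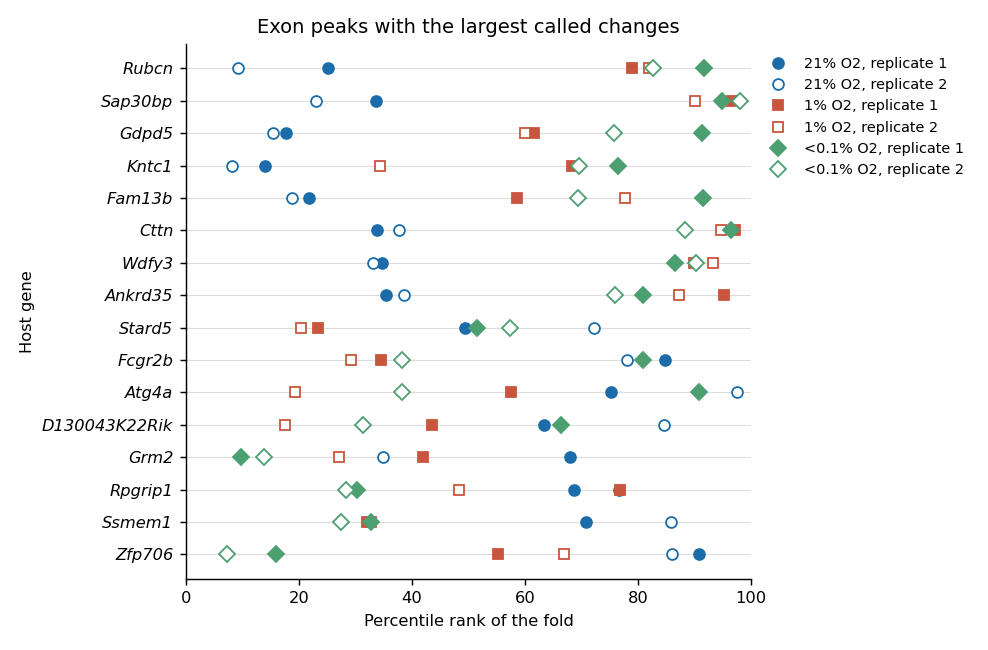
Percentile rank of the fold (x axis) in each library for the named exon peaks among the 5 largest called rises and falls at each hypoxic level, ordered by their change at <0.1% O2. *Rubcn* and *Sap30bp* lie at or below 33.6 in both normoxic libraries and at or above 79.0 in the hypoxic ones, and *Zfp706* goes from 90.9 and 85.9 to 16.0 and 7.25 at <0.1% O2.

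At the top of the normoxic ranking, where little room to rise is left, the 5 highest exon peaks were not called at either level. The highest was over the 3′ UTR of *Lars2*, the mitochondrial leucyl-tRNA synthetase (exon 21 of 21, chr9:123461789-123462194), with folds of 29.7 and 29.6 in normoxia, 35.7 and 37.2 at 1% O2 and 32.7 and 32.1 at <0.1% O2. It had 11 further matches in the genome, the longest of 244 bp at 97.5% identity, and whether they contribute fragments was not tested. *St3gal5*, which makes the ganglioside GM3 (exon 5 of 7), *Mau2*, of the cohesin loader (exon 13 of 19), *Crlf3*, a cytokine receptor-like factor (exon 6 of 8), and *Slc19a2*, a thiamine transporter (exon 4 of 6), followed, with changes of -1.57 to 1.06 points over both levels. Of the 5, *St3gal5* and *Slc19a2* held an AP-1 match. The promoters of *Lars2* and *Crlf3* were called lower at <0.1% O2, by -33.2 and -17.1 points.

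One exon peak was found in 1013 genes, 2 in 76, 3 in 11 and 4 in 1. Of the 88 genes with at least 2, 6 had all of them called higher at <0.1% O2, 1 had all called lower, 4 had both calls and 30 had no call. At 1% O2 the counts were 5, 4, 7 and 33. Of all single exon peaks, 29.5% were called higher and 10.8% lower at <0.1% O2, and 23.3% and 17.1% at 1% O2. The gene counts were not compared with what these shares alone would give. *Syne1*, which encodes the nuclear envelope protein nesprin-1, held 4. Its peak at exon 132 of 146 rose, from 20.04 and 27.2 at 21% O2 to 47.0 and 52.2 at 1% O2 and 55.8 and 41.9 at <0.1% O2. The peaks at exons 38 and 55 were not called, and that at exon 143, at 85.3 and 71.8, then 62.4 and 67.2, then 77.3 and 88.2, was called lower only at 1% O2, a call lost with the pileup ranked (-1.17). It was also lost with the GC trend subtracted (-9.00), and the change ran from -20.5 to -6.98 with single libraries left out. The genes with 3 were *Ccdc13*, *Ccdc40*, *Fancc*, *Itga2b*, *Lrp1*, *Pde11a*, *Plin1*, *Ppfia3*, *Sfi1*, *Srcin1* and *Unc80*. In *Ccdc13* the exon 3 peak went from 22.7 and 12.2 to 62.0 and 64.4 at <0.1% O2 and the other 2 were not called. In *Sfi1* the exon 10 peak fell from 42.4 and 50.4 to 19.8 and 13.3.

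Of 48 listed HIF targets 4 held an exon peak, and at <0.1% O2 3 of the peaks were called higher and 1 lower. Over all exon peaks 29.5% were called higher and 10.8% lower at that level, and over all ranked peaks 19.3% and 19.9%. The 4 peaks are too few for a share to be compared with these. *Pdk1*, a kinase that inhibits pyruvate dehydrogenase (last exon, 290 bp of 3′ UTR, AP-1 10.5 bp from a summit outside any gene), had ranks of 26.3 and 39.0 in normoxia, 45.7 and 52.4 at 1% O2 and 68.0 and 46.7 at <0.1% O2. *Bhlhe40*, a repressor induced by HIF (wholly 3′ UTR), had 19.04 and 15.7, then 23.6 and 24.3, then 29.0 and 36.6. The peak over the end of *Iffo1* and *Gapdh*, a glycolytic enzyme gene, had 6.18 and 4.22, then 6.97 and 8.68, then 14.1 and 16.6. *Gpi1*, also of glycolysis, had 29.0 and 35.6, then 26.7 and 30.2, then 21.0 and 14.7. With the pileup ranked, the changes of *Gapdh*/*Iffo1* (3.78) and *Gpi1* (-3.74) were no longer called, nor was that of *Pdk1* at 1% O2 (5.31). The *Gapdh*/*Iffo1* call was also lost with the GC trend subtracted (6.76), and its change ran from 8.94 to 11.4 with single libraries left out. This peak had 1 further match in the genome, of 121 bp at 93.4% identity. None of 28 glial and glioma identity genes, 18 AP-1 and immediate early genes, 39 Hox genes or 31 Srsf and Hnrnp genes held an exon peak.

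Among chromatin genes (Kdm, Kmt, Hdac, Chd and Smarc) 10 genes held 13 exon peaks, of which 6 were called higher at <0.1% O2 and 0 lower, with a median change of 7.51; they were in *Hdac4*, *Hdac5* (2 peaks), *Hdac8*, *Chd3* and *Kdm7a*, the Hdac genes encoding histone deacetylases, *Chd3* a nucleosome remodeller and *Kdm7a* a histone demethylase. Of 23 peaks in solute carrier genes 6 were higher and 2 lower. Of 13 in integrin genes, which encode matrix receptors, 2 were higher (*Itgb3* and *Itga5*) and 2 lower (*Itgb2* and *Itga8*). Of 11 in collagen genes 3 were higher and 0 lower, and of 8 in Zfp genes 3 were higher and 1 lower. At 1% O2 4 of the collagen peaks were lower and 2 higher, 3 of the Zfp peaks were lower and 3 higher, 1 of the integrin peaks was lower and 0 higher, 3 of the solute carrier peaks were lower and 5 higher, and 0 of the chromatin gene peaks were lower and 4 higher. *Dhx35* was higher at both levels, and of the 5 semaphorin and ephrin peaks *Sema5a* was higher and *Efna5* lower at <0.1% O2. Over all exon peaks 29.5% were called higher and 10.8% lower, and these families hold too few peaks for a share to be compared with that.

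The calls of exon peaks were set beside those of the promoters of their host genes. A ranked promoter peak was present for the host of 762 exon peaks. Where a gene had several, here and for the named genes above, the peak with the highest normoxic rank was taken. That choice used the 21% O2 values and by itself favours a fall of the promoter. The comparisons below are therefore partly fixed by it, and how far was not tested. At <0.1% O2 28.2% of the 762 had the promoter called lower and 9.32% higher. Of the 250 whose exon peak was called higher, 65 (26.0%) had the promoter called lower and 11 (4.40%) higher. Of the 74 whose exon peak was called lower, 20 (27.0%) had the promoter lower and 6 (8.11%) higher. The exon peak gained more rank than its promoter in 543 of the 762 (71.3%), in 68.2% with the pileup ranked, but in 54.1% with the GC trend subtracted. At 1% O2 the shares were 57.7%, 52.5% and 55.2%. There 17.8% of the promoters were called lower and 11.4% higher, and of the 141 exon peaks called lower 19 (13.5%) had the promoter lower and 25 (17.7%) higher, while of the 183 called higher 21 (11.5%) had it lower and 17 (9.29%) higher. At 21% O2 38.7% of these exon peaks ranked above the promoter of their gene, at 1% O2 44.1% and at <0.1% O2 51.4%.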

How the data were processed

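ATACseq was measured in 6 GL261 libraries, 2 each at 21%, 1% and <0.1% O2. Per the paper's methods and the processing notes, the authors trimmed reads with Trimmomatic, aligned them to mm10 with Bowtie2 2.2.5, removed duplicates (Picard) and mitochondrial reads, and kept proper pairs with a mapping quality over 30. Peak calling with MACS2 2.1.1.2 was done for each library without pooling, and peaks in blacklisted regions were dropped. The deposited lists give, for each peak, a fold (ratio to local background), -log10 p and -log10 q values, an integer score and the summit offset; the authors' score was not used. From these the summit pileup was recovered for 100% of peaks. Consensus peaks, exon overlap, percentile ranks and calls were computed as given above, with GENCODE M21 and the GRCm38.p6 assembly, within whose chromosome lengths all peaks lay. The GC trend is the smoothed median rank over bins of GC content in the 200 bp at the summit, taken per library. The genes named are hosts of the 5 largest called rises and falls at each level, the 5 highest normoxic ranks, the genes with most exon peaks, and members of the gene lists; the CTCF and coding AP-1 examples and the *Ccdc13* and *Sfi1* peaks described were chosen after their values were seen. The result of 1 gene that this rule names is not reported here. The peaks and lists were chosen with earlier results of these data known. The call rule was tested on simulated data. Alternatives for motif and summit groups, for single genes and for host promoters were added after seeing the data. The normoxic libraries were shallower than the hypoxic ones, and the part of depth in the spread between replicates was not tested. The study's own count-based comparison was not repeated. Python 3.11.15, pandas 2.3.3, numpy 2.4.6, scipy 1.17.1, pysam 0.24.0, matplotlib 3.10.9 and blastn 2.17.0 were used.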

Additional observations from a re-analysis of the deposited data

Results flagged for a closer look

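Of the 1189 exon peaks, 11 (0.925%) were called in opposite directions at the 2 hypoxic levels, with every hypoxic library beyond both normoxic ones each time, beside 0.812% of the 28432 ranked peaks. The 2 comparisons share the normoxic libraries, and the difference between the levels was not tested. In 9 of them the rank fell at 1% O2 and rose at <0.1% O2. The change at 1% and at <0.1% O2 was -14.4 and 26.8 points for *Nt5c2*, a cytosolic nucleotidase, -13.8 and 19.7 for *Txnrd1*, a thioredoxin reductase, -13.6 and 18.8 for *Tex15*, -10.8 and 18.2 for *Itch*, a ubiquitin ligase, and -10.4 and 14.1 for *Rnf144a*. It was -11.9 and 11.2 for *Specc1l*, -12.6 and 10.9 for *Pdzrn3*, -11.7 and 10.8 for *Ptprj*, a receptor phosphatase, and -12.5 and 10.4 for *Nfatc2*, a transcription factor. The opposite order was seen in *Best1*, a chloride channel gene, with 26.4 and -15.3, and in *Wdr63*, with 18.5 and -10.1. Groups of 2 libraries are too small to look for single outlying samples.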

How the results depend on the processing

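The number of exon peaks stayed within 1.5 times of 1189 under the other overlaps, thresholds, start-site windows and annotations, and was 338 with at least 50% of the peak inside exons; with single replicates left out it ran from 1215 to 1338. The median change at 1% O2 turned to -0.32 with the GC trend subtracted, and was 1.501 with -log10 q ranked, 1.41 with the summit pileup ranked and 5.22 with ranks taken within the whole list. At <0.1% O2 it was 0.80 with the GC trend subtracted and 5.996 within the whole list. Within the whole list 90 peaks were lower at 1% O2 and 83 at <0.1% O2. Leaving out single libraries gave medians of 0.68 to 1.06 at 1% and 3.15 to 3.598 at <0.1% O2, 229 to 250 peaks lower and 289 to 335 higher at 1%, and 172 to 197 lower and 377 to 391 higher at <0.1% O2; the 197 came without 21% O2 replicate 1. With at least 50% in exons, where fewer peaks remained, 49 were lower and 81 higher at 1%, and 40 and 106 at <0.1% O2. A change of at least 20 points left 73 lower and 153 higher at 1%, and 48 and 184 at <0.1% O2. With a replicate block, pairing libraries of the same number, 212 and 292 were called at 1% and 140 and 364 at <0.1% O2, with the same medians (0.49 and 2.94); same-numbered libraries share only a number, since their deviations correlated at -0.05 to 0.03 over all ranked peaks.

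Among groups of exon peaks, alternatives chosen after seeing the data turned the sign of small medians. Without AP-1 the median was 0.51 (pileup) at 1% O2, with a range of -0.15 to 0.32 when single libraries were left out, and -0.30 (GC trend) at <0.1% O2. With CTCF it was -0.17 (pileup) and with TEAD -0.08 (GC trend) at <0.1% O2. For 3′ UTR summits it was -0.0049 (GC trend) at 1% O2, and with the HIF core -0.056 (GC trend). With and without the start of any transcript within 2000 bp it was -0.20 and -0.42 (GC trend) at 1% O2. For coding summits it was -0.050 (GC trend) at 1% O2, with a left-out range of -0.030 to 1.38, then 0.42 (pileup) and 0.056 (GC trend) at <0.1% O2, with a left-out range of -0.35 to 1.204, and 0.69 (GC trend) at <0.1% against 1% O2. With a CpG ratio of at least 0.6 the left-out range was -0.13 to 1.25 at 1% O2. The causes were not tested, beyond the GC values given above. Of 306 values for the called changes of named peaks, 291 kept their call, 15 kept only their direction and 0 turned. With the pileup ranked the changes were smaller in size, except for *Stard5* at 1% O2 and *Pdk1* and *Bhlhe40* at <0.1% O2. At <0.1% O2 that of *Kntc1* was 24.6 in place of 62.0 points, and that of *Zfp706* -30.0 in place of -76.8. The shares of peaks with a motif rose with the window searched; AP-1 was in 15.7% at 100 bp and 33.5% at 400 bp.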
